A study of Mus musculus with 6 samples.

Results

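Small sets of transcripts are used to recognise neural stem cells of the adult mouse brain, and the genes described here are Thbs4, Prom1, Hopx, Lrig1, Fabp7, Cd9, Ndrg2 and Cpe. They were listed by name, as markers of adult neural stem cells, at a time when earlier results of these data were known. All 8 were present among the 32564 genes of the data set, with 42 of its 98294 transcripts. The 6 RNA sequencing libraries came from cells sorted by flow cytometry from the subependymal zone, the stem cell niche along the lateral ventricles. Every mouse carried the gfap:GFP transgene, which places green fluorescent protein under the promoter of a gene active in astrocytes as well as in stem cells, on a strain labelled C56BL/6J. Mice were 3 months old, and the sort followed 3 days after the ventricles were injected. By the labels' treatment group, the vehicle group (3 libraries) received artificial cerebrospinal fluid (aCSF). The antagomir group (3 libraries) received an antagomir, a chemically modified strand made to pair with a microRNA and keep it from its targets, here miR-204. A separate treatment field names the antagomir for every sample and was not used for the grouping. The labels name no control oligonucleotide, so injected oligonucleotide and blocked miR-204 cannot be told apart. They call the cells quiescent neural stem cells (qNSC), and they do not say whether replicates were separate animals or pools, so p-values reflect only how far these libraries spread, which may be technical.

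Adult neural stem cells of this zone are astrocyte-like cells that rest most of the time and, when activated, divide to give neuroblasts of the olfactory bulb. No single transcript separates them from ordinary astrocytes, and resting and activated cells differ in degree. Hopx, an atypical homeodomain protein that does not bind DNA itself, and Lrig1, a membrane protein that restrains receptors of the EGF receptor family, are used as marks of resting stem cells in several tissues. Prom1 (prominin-1, CD133) is a protein of membrane protrusions and cilia, and the sorting protocol that the labels cite is known for using it together with the reporter. Cd9 is a tetraspanin of the cell surface, Thbs4 a secreted thrombospondin, and Cpe (carboxypeptidase E) an enzyme that trims basic residues from peptide precursors. Fabp7 (brain lipid-binding protein) carries fatty acids in radial glia and their descendants, and Ndrg2 is a cytoplasmic protein of astroglia.

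The sequence that the antagomir is directed against is shown first, because it gives the letters that were searched for in the 8 markers. Mature mmu-miR-204-5p (RefSeq, GRCm38.p6, chr19:22750610-22750631, plus strand) is printed 5′ to 3′ with its seed, bases 2 to 8, in capitals.
mmu-miR-204-5p: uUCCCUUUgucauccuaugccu
Perfect matches to the seed were searched in the annotated 3′ UTR of the most abundant transcript of each marker, as AAAGGGAA (8mer), AAAGGGA (7mer-m8), AAGGGAA (7mer-A1) or AAGGGA (6mer), counting each place once under the longest match. None of the 8 markers held an 8mer or 7mer-m8, which 13.5% of 13812 genes searched the same way did. Many markers have short UTRs, and among UTRs of 0.8 to 1.25 times a marker's length that share ran from 1.86% for Thbs4 to 12.7% for Lrig1. Ndrg2 alone held a 7mer-A1, besides a separate 6mer, where 20.4% of all genes and 16.1% of those with a UTR of like length held a match of 7 bases or more. Prom1 held a 6mer only. The 3 places are printed as DNA in the direction of the gene, with 10 bases before the match and up to 10 after. All are on the minus strand of GRCm38, with the match in capitals. They lie at chr14:51905413-51905438 and chr14:51905482-51905507 in the 857-base 3′ UTR of Ndrg2, and at chr5:43993803-43993828 in the 896-base 3′ UTR of Prom1.
Ndrg2, 7mer-A1: aagtgggactAAGGGAAagagcttag
Ndrg2, 6mer: gctggggtagAAGGGAggggcccggg
Prom1, 6mer: aagtcagaacAAGGGAtcttgagaga
The other 6 UTRs, from 161 bases in Thbs4 to 1223 bases in Lrig1, held none of these letters. A match describes the sequence only, and the absence of one says only that these letters are not in the window searched.

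All 8 markers were expressed in all 6 libraries, across a wide range. On the TPM scale, which allows for transcript length, the mean level over 6 libraries was 5241 TPM ± 853 (SD) for Cpe, the 14th most abundant gene of all. Ndrg2 had 1259 TPM ± 215 and Cd9 948 TPM ± 87.1. Fabp7 followed at 142 TPM ± 45.5. Thbs4 had 74.3 TPM ± 21.4, Hopx 67.7 TPM ± 17.1, Prom1 37.9 TPM ± 10.5 and Lrig1, the lowest, 31.4 TPM ± 4.84. The ranges over libraries were separate for Cpe above Ndrg2, for Cd9 above Fabp7 and for Fabp7 above Thbs4. Ranges overlapped between Ndrg2 and Cd9 and between Hopx and Prom1, although the order held in each of the 6 libraries. Thbs4 was above Hopx in only 2 libraries and Prom1 above Lrig1 in 4, so these neighbours did not differ beyond their spread over all 6 libraries. In the first pair, Hopx was above Thbs4 in each vehicle library (means of 81.3 ± 10.1 and 68.3 ± 9.97 TPM). Hopx was also above in antagomir replicate 2 (47.3 and 45.1 TPM), and Thbs4 was above in antagomir replicates 1 and 3. The antagomir means were 54.0 ± 8.69 TPM for Hopx and 80.3 ± 30.7 TPM for Thbs4. Together the 8 genes took 0.631 to 0.946% of a library's TPM, and Cpe alone supplied 64.7 to 70.7% of that sum.

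Read depth was similar between libraries, with 14866453 to 19694409 estimated counts and 17205 to 17993 genes detected. The least counted marker value, 407 estimated counts for Hopx in antagomir replicate 2, lay far above a floor of 3 counts (0.152 to 0.201 CPM, counts scaled to library size, for counting error only). Levels of a gene between libraries are given below in CPM. The first 2 principal components held 34.9% and 22.3% of the variance. On the first, vehicle replicate 3 (66.3) lay opposite antagomir replicate 1 (-58.5) and vehicle replicate 1 (-43.5). On the second, vehicle replicate 1 (-59.3) and antagomir replicate 1 (56.0) lay at opposite ends, apart from the other 4 libraries. The libraries also held transcripts of other cell types. Astrocyte genes summed to 4308 to 4501 TPM in vehicle and 3341 to 4256 TPM in antagomir libraries, and oligodendrocyte genes to 7358 to 15921 and 12357 to 17319 TPM. Ependymal genes summed to 4748 to 6209 and 3599 to 6069 TPM, and neuroblast genes to 1134 to 2398 and 2085 to 4162 TPM. Microglia genes summed to 257 to 3044 TPM in vehicle, with the top value in replicate 1, and to 220 to 470 TPM in antagomir libraries. Pericyte and fibroblast genes summed to 135 to 150 and 116 to 157 TPM, led by Acta2 (84.9 TPM on average) and Pdgfrb (35.4 TPM), while 4 of the 9, Vtn, Kcnj8, Dcn and Lum, were at 0 counts in all libraries. In such sorted bulk samples, fewer cells of a type and less RNA per cell cannot be told apart.

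Setting antagomir against vehicle addresses whether injection of the antagomir, rather than of aCSF, is accompanied by other marker levels. Hopx and Fabp7 were the 2 markers whose groups did not overlap, both lower after the antagomir, while Lrig1, Cd9, Ndrg2, Cpe, Prom1 and Thbs4 overlapped. No marker passed the test over all genes. After Benjamini-Hochberg adjustment of edgeR's quasi-likelihood p-values, 0 of 15012 genes (0%) were called, with a smallest adjusted p of 0.949. DESeq2 called 1 gene, which is not a marker. An unadjusted p under 0.05 was found for 616 genes (4.1%), and for 2 of the 8 markers. Groups with every antagomir library below every vehicle library were found in 818 genes (5.45%), and in 2 of the 8 markers. The reverse, with every antagomir library above, was found in 761 genes and in 0 markers. A negative log2 fold change was found in 50.9% of the genes and in 5 of the 8 markers. The median log2 fold change was -0.073 over the markers and -0.0062 over all genes.

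**Figure D1:**
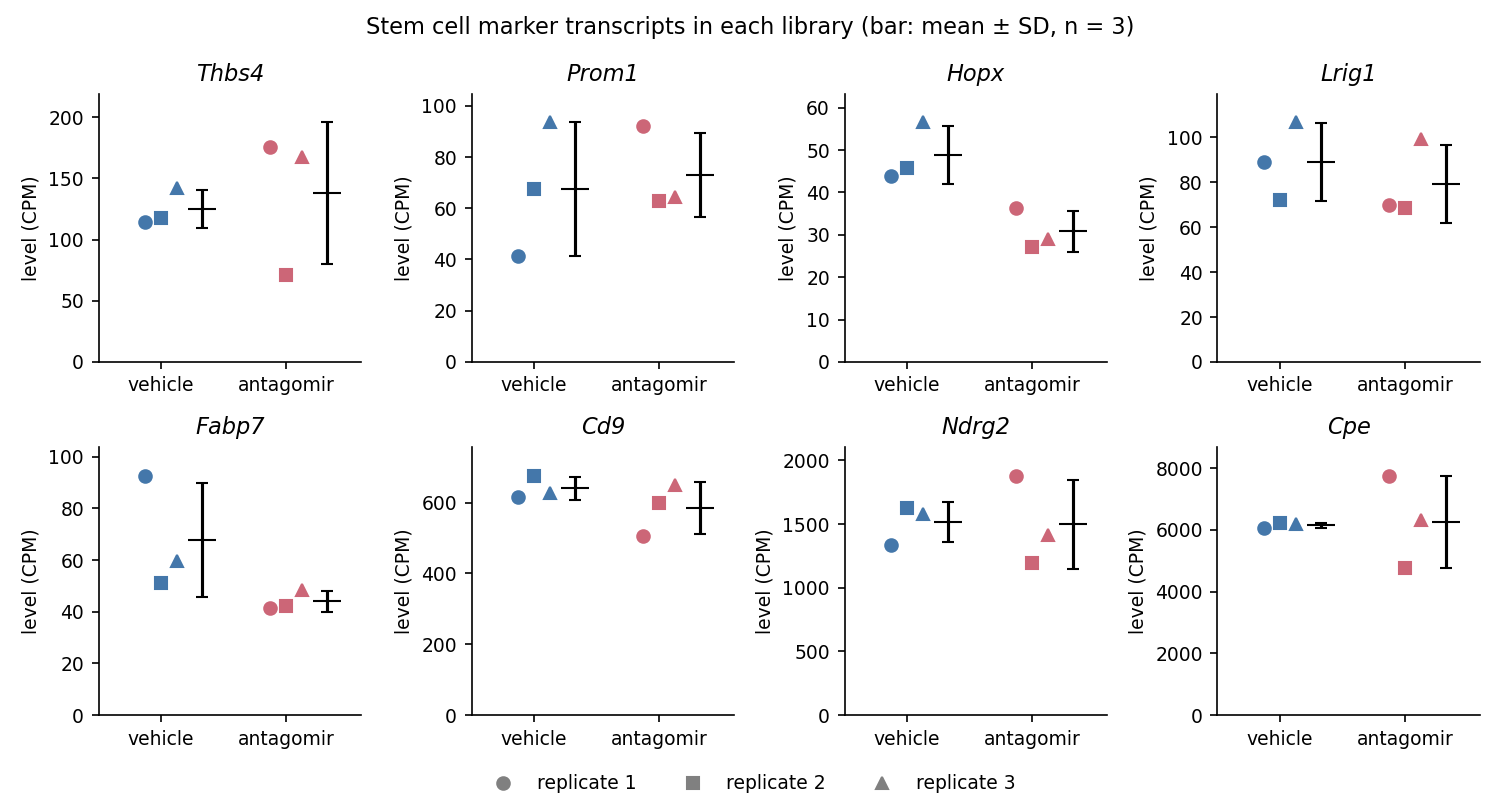
Level in CPM (y axis, from 0) of each of the 8 markers in the 3 vehicle and 3 antagomir libraries; the point shape gives the replicate number and the bar the group mean ± SD. Hopx and Fabp7 have no overlap between groups, and Thbs4, Ndrg2 and Cpe are lowest in antagomir replicate 2 and highest in antagomir replicate 1.

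Hopx (ENSMUSG00000059325.14, chr5:77086988-77115121 in GRCm38, minus strand), used as a mark of resting stem cells, had 43.9, 45.8 and 56.6 CPM in vehicle replicates 1, 2 and 3. It had 36.4, 27.2 and 28.9 CPM in antagomir replicates 1, 2 and 3. All 3 antagomir libraries lay below all 3 vehicle libraries, and antagomir replicate 1 came nearest to the vehicle group. The means were 48.8 ± 6.82 and 30.8 ± 4.86 CPM (SD, n = 3), which is 36.7% lower after the antagomir. The log2 fold change was -0.66 (SE 0.20, 95% interval -1.11 to -0.21). With edgeR's quasi-likelihood test its unadjusted p of 0.00979 ranked 67th among the 15012 genes, and its Benjamini-Hochberg adjusted p was 0.949. Hopx stayed negative under all 17 alternative settings, at -0.87 to -0.44, with edgeR, DESeq2 or limma adjusted p of 0.347 to 1.0.

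Hopx partners were given from a list of 3 genes through which it is known to act. Srf, the serum response factor whose activity Hopx limits, had 42.1 ± 8.62 CPM in vehicle and 49.7 ± 8.53 CPM in antagomir libraries (log2 fold change 0.24). Hdac2, a histone deacetylase, had 89.9 ± 22.0 and 122 ± 38.0 CPM (0.44). Epc1, a chromatin protein, had 26.7 ± 6.68 and 32.1 ± 3.81 CPM (0.26). Each of the 3 overlapped between groups, and none passed the test.

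Fabp7 (ENSMUSG00000019874.11, chr10:57784881-57788450 in GRCm38, plus strand), the fatty acid carrier of radial glia, had 92.8, 51.1 and 59.5 CPM in vehicle replicates 1, 2 and 3. It had 41.4, 42.2 and 48.5 CPM in antagomir replicates 1, 2 and 3. The antagomir libraries were close together and below every vehicle library, and vehicle replicate 1 was far above the others. The means were 67.8 ± 22.0 and 44.0 ± 3.94 CPM (SD, n = 3), with a log2 fold change of -0.62 (SE 0.24, 95% interval -1.17 to -0.075). Its unadjusted p with edgeR's quasi-likelihood test was 0.0304 and ranked 325th, with a Benjamini-Hochberg adjusted p of 0.949. Without vehicle replicate 1 the log2 fold change was -0.32, with an unadjusted edgeR p of 0.135. The same library had the high microglia sum given above, and the part of those cells in its Fabp7 level was not tested. Fabp7 was negative under all 17 alternatives, at -0.79 to -0.29, with edgeR, DESeq2 or limma adjusted p of 0.553 to 1.0.

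Fatty acid carriers related to Fabp7 were on the list with Rbpj, the Notch pathway factor known to act on Fabp7. Fabp5, the epidermal fatty acid carrier, had 115 ± 8.76 CPM in vehicle and 124 ± 4.90 CPM in antagomir libraries (log2 fold change 0.12), and Rbpj 45.2 ± 7.30 and 52.4 ± 10.2 CPM (0.21). Fabp1, the liver form, was at 0 counts in all 6 libraries, and Fabp4, the adipocyte form, had 13 counts in all.

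The start regions of Hopx and Fabp7 are shown because these were the 2 markers lower in every antagomir library. Most Hopx transcript came from Hopx-202 (88.6% of its TPM), which begins at an internal start, and little from the upstream Hopx-201 (1.97%). The sequences are RefSeq's (GRCm38.p6), 5′ to 3′ in the direction of the gene, and end at the base before the GENCODE start. Hopx-202 is given at chr5:77095278-77095517 (minus strand), and Fabp7-201 at chr10:57784673-57784880 (plus strand).
Hopx-202: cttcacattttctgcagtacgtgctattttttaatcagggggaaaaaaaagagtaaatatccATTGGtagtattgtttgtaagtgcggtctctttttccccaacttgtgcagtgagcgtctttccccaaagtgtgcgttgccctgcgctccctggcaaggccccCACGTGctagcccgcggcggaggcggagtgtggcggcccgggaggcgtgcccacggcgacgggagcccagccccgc
Fabp7-201: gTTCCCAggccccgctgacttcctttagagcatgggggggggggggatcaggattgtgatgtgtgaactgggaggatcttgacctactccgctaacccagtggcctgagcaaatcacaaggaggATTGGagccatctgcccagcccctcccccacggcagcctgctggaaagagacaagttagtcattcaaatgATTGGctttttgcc
Capitals mark matches, on either strand, to the CCAAT box, to the TATA box (TATAAA), to the E-box CACGTG and to TGGGAA, the core bound by the Notch factor Rbpj, and none of these motifs contains another. The Hopx region held 1 CCAAT and 1 CACGTG, and the Fabp7 region 2 CCAAT and 1 TGGGAA. Among 32851 promoter windows of 250 bases, 33.8% held CCAAT, 6.02% CACGTG, 21.6% TGGGAA and 12.4% TATAAA. The motif that both regions held, CCAAT, is thus common, and a match is a description of letters rather than of a bound site. A promoter entry was found for 7 of the 8 markers (not Cpe).

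Lrig1 (ENSMUSG00000030029.14, chr6:94604529-94700158 in GRCm38, minus strand), the restraint on EGF receptor family members, had 88.9, 72.0 and 107 CPM in vehicle replicates 1, 2 and 3. It had 69.8, 68.4 and 99.2 CPM in antagomir replicates 1, 2 and 3. Replicate 3 was the highest library of each group, and the groups overlapped. The means were 89.2 ± 17.4 and 79.2 ± 17.4 CPM, with a log2 fold change of -0.17 (SE 0.21, edgeR quasi-likelihood unadjusted p = 0.434). The 95% interval ran from -0.66 to 0.31 on the log2 scale.

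Among the Lrig1 family and its receptors, a list of 8 genes of which 7 were tested, 2 had an unadjusted p under 0.05 with edgeR and 0 were called. Lrig2, a paralog, had 32.4 ± 5.34 CPM in vehicle and 51.2 ± 7.14 CPM in antagomir libraries, with no overlap (log2 fold change 0.66, edgeR unadjusted p = 0.0107, adjusted p = 0.949). Egfr, the growth factor receptor that rises on stem cell activation, had 59.0 ± 11.97 and 41.7 ± 2.52 CPM, also without overlap (-0.50, edgeR unadjusted p = 0.0309, adjusted p = 0.949). Erbb2, Erbb3, Erbb4 and Lrig3 had log2 fold changes between -0.15 and 0.061 and overlapping groups, and Met, a receptor of another family, 0.73 (SE 0.53).

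Prom1 (ENSMUSG00000029086.15, chr5:43993620-44102032 in GRCm38, minus strand) had 41.4, 67.6 and 93.5 CPM in vehicle replicates 1, 2 and 3. It had 92.1, 62.7 and 64.5 CPM in antagomir replicates 1, 2 and 3. The vehicle libraries alone spanned the whole antagomir range. The means were 67.5 ± 26.1 and 73.1 ± 16.5 CPM, with a log2 fold change of 0.11 (SE 0.30, edgeR quasi-likelihood unadjusted p = 0.710). Without vehicle replicate 1 it was -0.13, and without vehicle replicate 3 it was 0.44. The labels used here do not state the gate, and whether the sort bears on its transcript was not tested. Its only relative on the list, Prom2, was low, at 5.36 ± 1.14 CPM in vehicle and 3.63 ± 1.25 CPM in antagomir libraries.

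Cd9 (ENSMUSG00000030342.8, chr6:125460266-125494791 in GRCm38, minus strand), the tetraspanin, had 616, 676 and 628 CPM in vehicle replicates 1, 2 and 3. It had 507, 598 and 650 CPM in antagomir replicates 1, 2 and 3. It was the steadiest of the 8 markers, with 1.33-fold between the highest and the lowest library, and antagomir replicate 1 was its lowest. The means were 640 ± 32.1 and 585 ± 72.7 CPM, with a log2 fold change of -0.13 (SE 0.14, 95% interval -0.45 to 0.19, edgeR quasi-likelihood unadjusted p = 0.381).

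Tetraspanins and the partners they bind made a list of 14 genes, all tested, of which 9 were negative and 5 positive and 0 were called. Igsf8, an immunoglobulin protein that binds Cd9 and Cd81, had 173 ± 24.3 CPM in vehicle and 219 ± 12.7 CPM in antagomir libraries (log2 fold change 0.34, edgeR unadjusted p = 0.0491, adjusted p = 0.949). Cd63, a tetraspanin of endosomes, had 339 ± 14.1 and 269 ± 14.2 CPM (-0.33), and Cd81, the close relative of Cd9, 1286 ± 71.7 and 1215 ± 131 CPM (-0.082). Cd37 and Cd53, tetraspanins of leukocytes, had log2 fold changes of -2.14 and -2.05, with SDs above their vehicle means of 6.83 ± 10.3 and 15.9 ± 24.4 CPM. The integrin chains Itgb1 and Itga6 had log2 fold changes of 0.18 and -0.11, with overlapping groups.

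Thbs4 (ENSMUSG00000021702.7, chr13:92751590-92794818 in GRCm38, minus strand), the secreted thrombospondin, had 115, 118 and 143 CPM in vehicle replicates 1, 2 and 3. It had 175, 71.0 and 167 CPM in antagomir replicates 1, 2 and 3. The antagomir group held both the highest and the lowest value, and with 2.47-fold between them Thbs4 had the widest range of the 8 markers. The means were 125 ± 15.2 and 138 ± 58.1 CPM, with a log2 fold change of 0.14 (SE 0.31, edgeR quasi-likelihood unadjusted p = 0.664). Without antagomir replicate 2 it was 0.46, and without antagomir replicate 1 it was -0.068. Among its relatives, Thbs3 had 38.0 ± 17.6 and 37.4 ± 10.8 CPM and Cd47, a thrombospondin receptor, 208 ± 14.0 and 201 ± 10.6 CPM, and Comp was near the floor with 20 counts in all 6 libraries.

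Cpe (ENSMUSG00000037852.8, chr8:64592542-64693054 in GRCm38, minus strand), the most abundant marker, had 6046, 6213 and 6179 CPM in vehicle replicates 1, 2 and 3. It had 7730, 4752 and 6332 CPM in antagomir replicates 1, 2 and 3. The vehicle values were close together and lay inside the antagomir range. The means were 6146 ± 88.3 and 6271 ± 1490 CPM, with a log2 fold change of 0.029 (SE 0.18, 95% interval -0.39 to 0.45, edgeR quasi-likelihood unadjusted p = 0.877). Other enzymes and granule proteins of peptide processing were a list of 11 genes, of which 10 were tested, 8 were positive and 0 were called. Pcsk1n, an inhibitor of prohormone convertase 1, had 329 ± 28.8 and 344 ± 91.3 CPM, and Cpd, a related carboxypeptidase, 233 ± 25.0 and 260 ± 76.8 CPM. Pcsk2, a prohormone convertase, had 33.2 ± 4.27 and 25.4 ± 7.29 CPM (log2 fold change -0.38), and its groups overlapped.

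Ndrg2 (ENSMUSG00000004558.15, chr14:51905271-51914158 in GRCm38, minus strand) had 1335, 1626 and 1584 CPM in vehicle replicates 1, 2 and 3. It had 1882, 1193 and 1418 CPM in antagomir replicates 1, 2 and 3. As with Cpe, the vehicle values lay inside the antagomir range. The means were 1515 ± 157 and 1498 ± 351 CPM, with a log2 fold change of -0.016 (SE 0.19, 95% interval -0.45 to 0.41, edgeR quasi-likelihood unadjusted p = 0.933). Its sign turned with the library left out, from -0.22 without antagomir replicate 1 to 0.13 without antagomir replicate 2. Ndrg1, Ndrg3 and Ndrg4, the other members of the family, had log2 fold changes of 0.38, 0.34 and 0.67, and 0 were called. Ndrg3 did not overlap between groups, with 90.2 ± 0.769 CPM in vehicle and 114 ± 19.6 CPM in antagomir libraries (edgeR unadjusted p = 0.0644, adjusted p = 0.949).

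**Figure D2:**
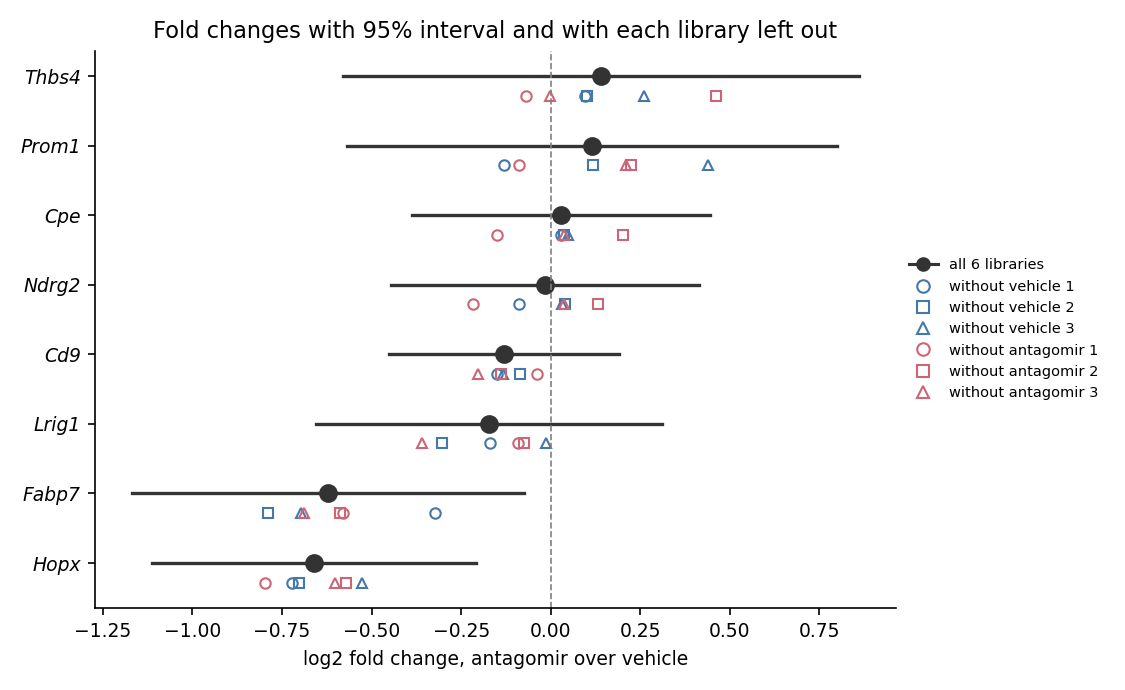
Log2 fold change of antagomir over vehicle (x axis) for each marker (y axis) from edgeR; filled points with lines are the estimate and 95% interval from all 6 libraries, and open symbols the estimate with 1 library left out. The intervals of Hopx (-1.11 to -0.21) and Fabp7 (-1.17 to -0.075) lie below 0, and those of the other 6 markers include it.

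Over all relatives and partners together, 54 genes, 44 had a mean of at least 1 TPM and 48 were tested. Of these, 18 were negative and 30 positive, with a median log2 fold change of 0.080, and 0 were called. At an unadjusted edgeR p under 0.05 there were 4, namely Lrig2, Egfr, Igsf8 and Cd63, with Lrig2 and Igsf8 higher and Egfr and Cd63 lower after the antagomir. On the CPM scale, groups did not overlap for 4 lower and 3 higher of the 48 genes, beside 818 lower and 761 higher of all 15012.

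The annotated isoforms of the markers were compared next, since reads of a gene can shift between its transcripts without a change in its sum. Of the 42 transcripts, 23 had a mean of at least 1 TPM, and 13 of them held at least 10% of their gene. Cpe-201 (99.5%), Cd9-201 (99.2%), Fabp7-201 (96.7%) and Thbs4-201 (94.8%) supplied nearly all of their gene's TPM. edgeR called 0 of 40212 transcripts (0%), with a smallest adjusted p of 0.99991 and 981 at an unadjusted p under 0.05. Of 22 marker transcripts tested, 2 were at an unadjusted p under 0.05. Groups did not overlap for 4 of the 22, namely Lrig1-207, Hopx-202, Fabp7-201 and Fabp7-202, each lower after the antagomir. The share over all transcripts was not counted, so whether 4 of 22 is more than usual is not known. An exact permutation test of the 13 shares, which cannot go below p = 0.1 with 3 against 3 libraries, gave a smallest adjusted p of 1. kallisto divides shared reads among isoforms by a model, and that uncertainty is not in these values.

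Lrig1 had the widest difference in isoform share. Lrig1-207, annotated as a target of nonsense-mediated decay, had 7.67, 5.60 and 10.3 TPM in vehicle replicates 1, 2 and 3 and 3.70, 4.57 and 4.66 TPM in antagomir replicates 1, 2 and 3. Every antagomir library was below every vehicle library. Its share of Lrig1 was 24.3% ± 5.23 in vehicle and 14.2% ± 2.09 in antagomir libraries (exact permutation p = 0.1, the smallest possible, adjusted 1). The transcript's log2 fold change was -0.91 (SE 0.30, edgeR unadjusted p = 0.0184, adjusted p = 0.99991), beside 0.043 for the main coding transcript Lrig1-202. The 2 transcripts have the same coding exons. Lrig1-207 has a spliced intron of 130 bases past the stop codon (chr6:94604780-94604909, GRCm38). The outer ends also differ, at chr6:94700137 and chr6:94604536 for Lrig1-202 and at chr6:94700158 and chr6:94604529 for Lrig1-207.

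Ndrg2 was split in a steady ratio between its 2 transcripts. Ndrg2-202 held 68.7% ± 4.87 of the TPM in vehicle and 68.4% ± 2.00 in antagomir libraries (exact permutation p = 1), and Ndrg2-201 the rest. In GENCODE M21, Ndrg2-201 contains a coding exon of 42 bases that Ndrg2-202 lacks (exon 3, chr14:51911086-51911127, GRCm38, minus strand), shown because it is what separates the 2 forms within the coding sequence.
Ndrg2-201 exon 3: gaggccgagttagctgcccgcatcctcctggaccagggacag
The files list 2157 bases for Ndrg2-201 and 2115 for Ndrg2-202, in earlier versions of both transcripts than the reference holds.

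Prom1 was spread over the most isoforms, with 19 transcripts in the files and 5 at 1 TPM or more. Prom1-207 held 39.2% of its TPM on average, but from 24.7% in vehicle replicate 1 to 62.2% in vehicle replicate 2. Prom1-202 held 20.9%, with a range of 9.13 to 34.6%. Both extremes of each fell in the vehicle group, and the group means of Prom1-207, 41.5% ± 19.1 and 36.9% ± 9.66, lay well within that spread (exact permutation p = 0.8). Prom1-202 has 3 coding exons that Prom1-207 lacks, shown because they separate these forms within the coding sequence (the forms also differ in noncoding exons; GRCm38, minus strand, chr5:44058626-44058652, chr5:44001270-44001293 and chr5:44000777-44000845).
Prom1-202 exon 4: ccagaaatcatagtcttggctctgaag
Prom1-202 exon 25: tgttgagactgtgcccatgaaaaa
Prom1-202 exon 26: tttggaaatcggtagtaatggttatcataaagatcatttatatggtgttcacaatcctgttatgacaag
Hopx-202, the main Hopx form, held 88.5% ± 3.22 in vehicle and 88.6% ± 5.53 in antagomir libraries (exact permutation p = 0.9). Its own log2 fold change was -0.61 (SE 0.22, edgeR unadjusted p = 0.0271, adjusted p = 0.99991), close to that of the whole gene. Fabp7-201 had a log2 fold change of -0.57 and the minor Fabp7-202, at 4.75 TPM, one of -1.52 (SE 0.74), and neither overlapped between groups.

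**Figure D3:**
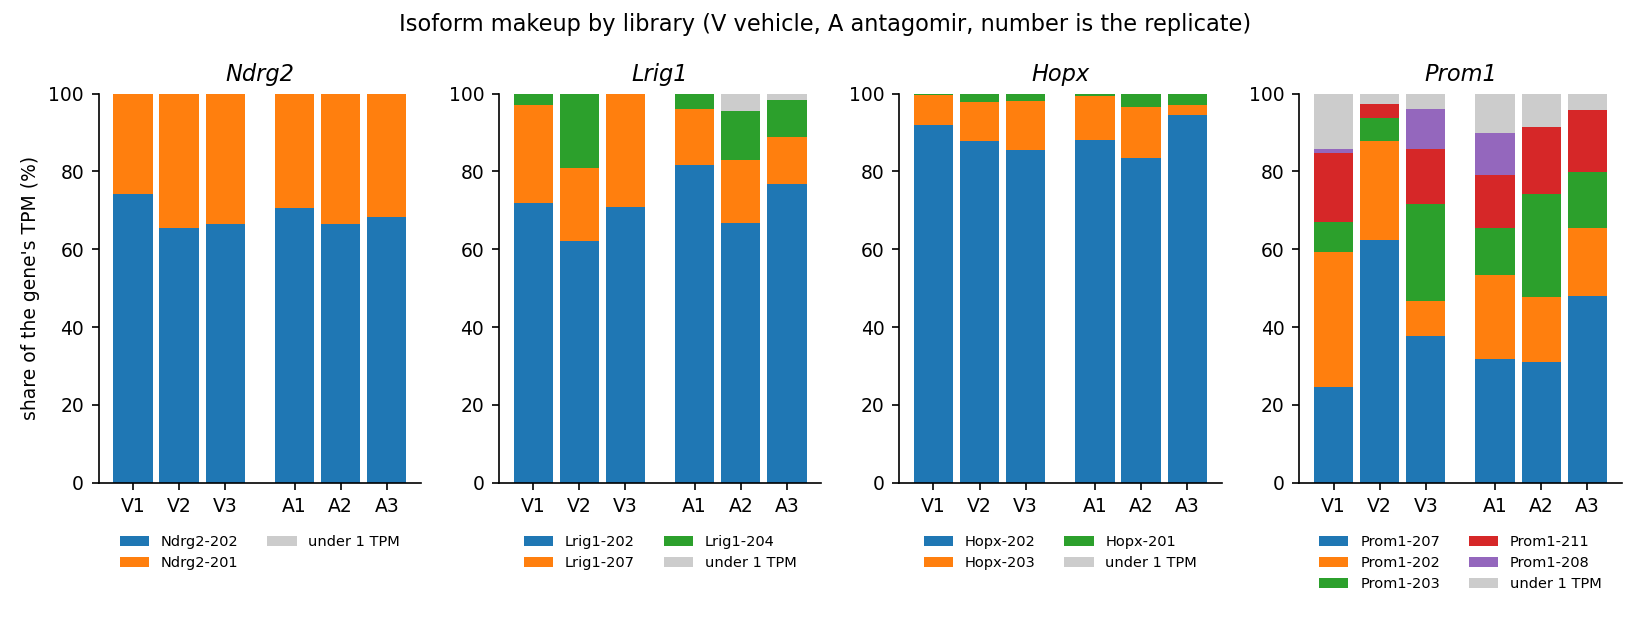
Share of each gene's TPM (y axis, %) held by its transcripts of at least 1 TPM on average, stacked for each library (x axis, V vehicle, A antagomir, with replicate number), for Ndrg2, Lrig1, Hopx and Prom1; grey is the sum of lesser transcripts. Lrig1-207 takes 18.7 to 29.0% in vehicle and 12.01 to 16.2% in antagomir libraries, and the Prom1 makeup differs most between vehicle libraries.

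The 8 markers were also compared in pairs over the 6 libraries on the log2 CPM scale. Of 28 pairs, 19 correlated positively, with a median Pearson r of 0.29. Thbs4 and Cpe, the 2 secreted proteins, had the highest r of 0.91 (exact permutation p = 0.00417, adjusted over 28 pairs 0.117) and a Spearman rho of 0.94 (exact permutation p = 0.0167, adjusted 0.467). Without the 2 libraries farthest from the median of Thbs4, r was 0.80. Ndrg2 and Cpe had an r of 0.90 (exact permutation p = 0.025, adjusted 0.35), which dropped to 0.32 without the 2 farthest libraries. Hopx and Fabp7 had an r of 0.54 (exact permutation p = 0.272, adjusted 0.769). No pair passed after adjustment.

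The genes whose levels most resembled each marker over the same 6 libraries were taken from 8603 protein-coding genes of at least 20 CPM, and with 6 libraries many genes resemble any marker. For Hopx these were Csgalnact1, Lpcat3 and Hmbox1 (r of at least 0.99), and 91 genes had an r over 0.9. For Fabp7 they were Fgfrl1, Irf9 and B2m, with 60 genes over 0.9. For Lrig1 they were Esd, Wdr24 and Creb3, with 28 genes over 0.9, and for Cpe Sgip1, Atmin and Tmem104, with 105. For Thbs4 they were Tbc1d22a, Dctn3 and Rab6a, and for Prom1 Ndn, Nkiras2 and Zfp26. For Cd9 they were Lmf1, Fhdc1 and Camk2d, and for Ndrg2 Vps41, Zmym4 and Tmem175. The resemblance of Sgip1 to Cpe was 0.69 without the 2 libraries farthest from the median.

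The markers were set beside a list of 35 other genes of stem cells and astroglia, such as Apoe, Clu, Sox2 and Slc1a3, all of them tested. Of the 35, 31 had a negative log2 fold change, with a median of -0.20, 2 had an unadjusted edgeR p under 0.05 and 0 were called. The 2 were Mt3, a metallothionein of brain, with 691 ± 86.2 and 498 ± 55.9 CPM (log2 fold change -0.47), and Slc1a2, a glutamate transporter, with 1563 ± 297 and 1186 ± 115 CPM (-0.40). Their summed level was 43764 to 44543 TPM in vehicle and 35282 to 41734 TPM in antagomir libraries, lowest in antagomir replicate 2. On the CPM scale Thbs4, Hopx, Lrig1, Ndrg2 and Cpe were also lowest in antagomir replicate 2. Of 18 genes of activated stem cells and dividing progenitors, 16 were positive, with a median log2 fold change of 0.71. Of these 18, 7 had an unadjusted edgeR p under 0.05 (6 higher and 1 lower) and 0 were called. Of 15 neuroblast genes 15 were positive, with a median of 0.96, but only 1 had an unadjusted edgeR p under 0.05. Those 2 lists were highest in antagomir replicate 1 and next highest in vehicle replicate 1, and Thbs4, Ndrg2 and Cpe were also highest in antagomir replicate 1. The part of the cell makeup of a library in these marker levels was not tested.

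When libraries were scaled so that the median of the 35 stem cell genes was level, an alternative chosen after seeing the data, the median of all genes moved to 0.22 on the log2 scale. Hopx was then at -0.44 (edgeR unadjusted p = 0.0759, adjusted p = 0.624) and Fabp7 at -0.40 (edgeR unadjusted p = 0.158, adjusted p = 0.662). Whether either marker differed from the list was not tested. That scaling moves nearly all genes up by a like amount, so Lrig1, Cd9 and Ndrg2 at 0.044, 0.10 and 0.19 crossed 0 by its construction. Without the first replicate of both groups, also an added alternative, all 8 markers had a negative log2 fold change, Hopx at -0.87 (edgeR unadjusted p = 0.00332, adjusted p = 0.347) and Fabp7 at -0.29. The cause of the shift without those replicates was not tested.

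**Figure D4:**
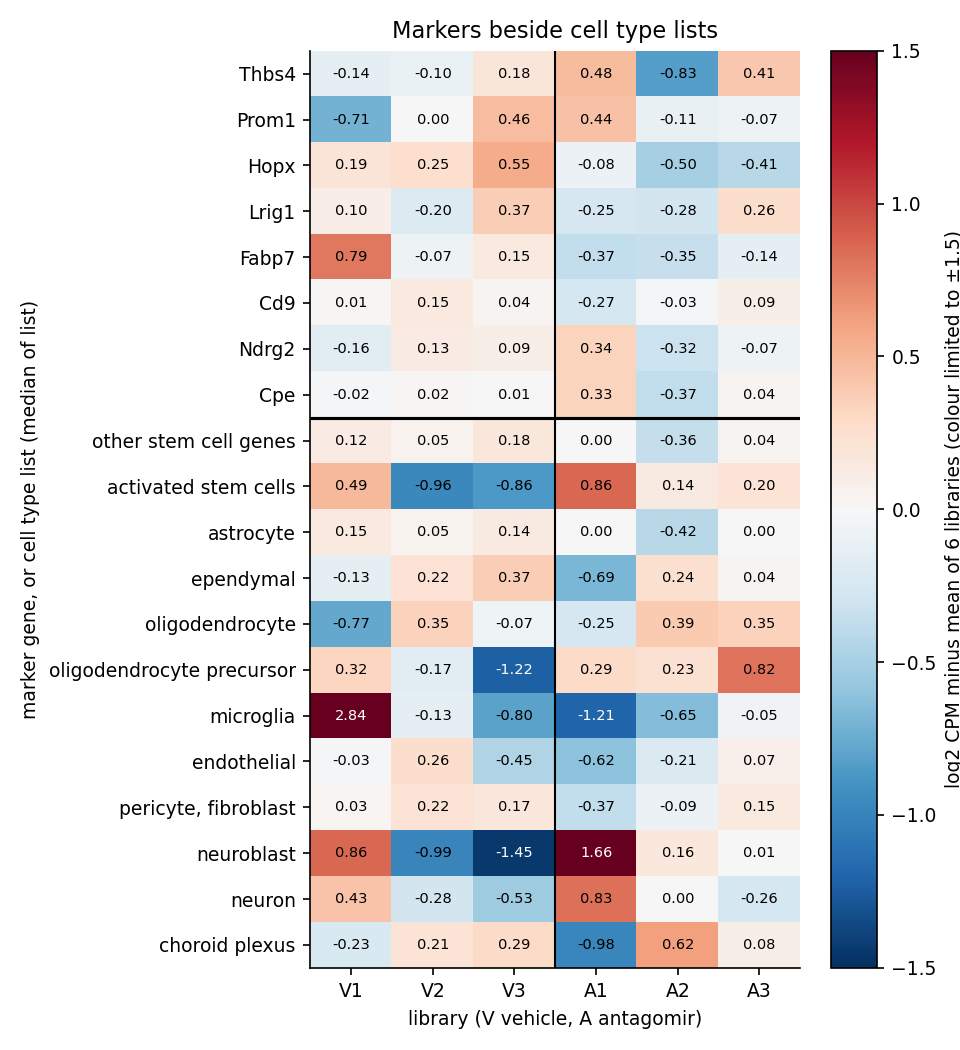
Difference in log2 CPM from the mean over all 6 libraries (colour and printed value) for each marker (upper rows) and for the median gene of each cell type list (lower rows), by library (x axis, V vehicle, A antagomir). Vehicle replicate 1 holds the highest microglia score, 2.84, and the highest Fabp7 level, and antagomir replicate 2 the lowest score of other stem cell genes, -0.36.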

How the data were processed

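The 6 libraries were grouped by the labels' treatment group, with replicate numbers from the labels; the treatment field names the antagomir for every sample and was not used. Per the labels' protocols, cDNA came from a low-input kit that does not mark strand. Per the submitters' processing notes, kallisto and sleuth were used with the mm10 build (their release is not given in the sources used here). Estimated counts, as deposited, are kallisto's unnormalized estimates per transcript, per the file headers. TPM, as deposited, are those estimates per effective length, scaled to a common total, per the file headers.

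Of 99567 transcripts, 98294 (98.7%) matched GENCODE M21 (GRCm38) by identifier, 92612 of them with the same version; the other 1273 held 0.524 to 0.586% of counts and were left out. Counts were summed per gene and rounded. Pairs of libraries differed by a chi-square per gene of 23.7 to 98.7, so none repeated another. The gene test was edgeR's (version 4.0.16, R 4.3.3; TMM, filterByExpr with a minimum count of 10, robust quasi-likelihood, group only, threshold 0.05 after Benjamini-Hochberg adjustment); the common biological coefficient of variation was 36.2%. Transcripts were tested likewise. CPM use TMM-scaled totals, and log2 CPM a prior count of 2. The code of the test was checked on simulated counts with the same biological coefficient of variation for every gene. That setting leaves out the uneven spread of these libraries. Alternatives were other scalings, DESeq2 1.42.0, limma 3.58.1, other filters, log2(TPM + 1), libraries left out and a replicate block.

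The markers, lists and alternatives were chosen with earlier results of these data known. All 8 markers are named, with their isoforms of at least 1 TPM, the listed relatives of at least 1 TPM, the genes of each cell type list with the highest level or the smallest p, and the 3 most similar genes per marker; of these the text gives a part. Vtn, Kcnj8, Dcn, Lum, Comp, Fabp1 and Fabp4 lie outside that rule and were named for their counts of 0 or near the floor, and Sox2 and Slc1a3 as examples of their list. Lists were written from general knowledge.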

Additional observations from a re-analysis of the deposited data

How the results depend on the processing

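Hopx and Fabp7 kept a negative log2 fold change in all 17 alternatives. The unadjusted p was under 0.05 in 16 of them for Hopx and in 12 for Fabp7, and no alternative brought a marker under an adjusted p of 0.05. DESeq2 called 1 gene over all genes, and edgeR and limma called 0 in the other settings of the gene test. With 1 library left out at a time, the number of negative markers ranged from 4 to 8, with 8 without antagomir replicate 1. Over the same 6 fits, log2 fold changes ranged from -0.13 to 0.44 for Prom1, from -0.22 to 0.13 for Ndrg2, from -0.068 to 0.46 for Thbs4 and from -0.15 to 0.20 for Cpe, so the sign of these 4 turned. Ndrg2 was 0.032 with limma on log2(TPM + 1). Without the first replicate of both groups all 8 were negative, with Thbs4 at -0.13, Prom1 at -0.35 and Cpe at -0.16. The cause was not tested. Scaling to the other stem cell genes, which by construction moved the median of all genes to 0.22, left 2 markers negative and gave Lrig1 0.044, Cd9 0.10 and Ndrg2 0.19.

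Same-numbered libraries correlated at 0.19, 0.075 and 0.028 in their deviations from group means, and differently numbered ones at -0.19 to 0.14. With 3 libraries a group, these values do not settle whether replicate numbers pair the samples. With a replicate block 0 genes were called, 5 markers were negative, and Hopx was -0.66 (edgeR unadjusted p = 0.0106, adjusted p = 0.493) and Fabp7 -0.58 (adjusted p = 0.553). Transcripts called stayed at 0 with limma-voom and with a mean count of at least 50.

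Precision is limited by the spread between 3 libraries a group. Each marker had at least 407 counts in every library. Isoform shares rest on a model of shared reads.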
